A study of Mus musculus with 19 samples.

Results

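The response of C2C12 cells to thapsigargin at 12 h was compared with their response at 6 h. C2C12 is a mouse myoblast line, a model of the muscle precursor cells that fuse into fibres, and the labels give the genotype as WT in every group. The quantity described for each gene is a difference of differences, thapsigargin minus DMSO at 12 h, minus thapsigargin minus DMSO at 6 h, on the log2 scale. It is called the change in response here: above 0 the gene's response was higher at 12 h, below 0 it was lower. The groups were 100 nM thapsigargin for 12 h (n = 2), the vehicle DMSO for 12 h (n = 2), 100 nM thapsigargin for 6 h (n = 3) and DMSO for 6 h (n = 3). These are 10 of the 19 libraries of the series, chosen by their labels, and the other 9 entered only the filtering, scaling and spread of the shared model. All cells grew in the same serum medium, and each time had a vehicle group of its own. No source used here says whether replicates were separate cultures, so the p-values cover only differences among these libraries of a single line, and those may be technical.

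Thapsigargin blocks SERCA, the pump that fills the calcium store of the endoplasmic reticulum (ER). An empty store disturbs protein folding there, and the kinase PERK then phosphorylates the translation factor eIF2. Translation drops as a whole while that of the transcription factor ATF4 goes up, and ATF4 with its partners of the CEBP family turns on genes of amino acid supply and redox balance, the integrated stress response (ISR). The sensors ATF6 and IRE1 raise ER chaperones in parallel, and the phosphatase subunit encoded by Ppp1r15a later restores translation, so the mix of active genes can shift with the length of exposure.

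Polyadenylated RNA was sequenced in bulk. The libraries held 17.31 and 19.13 M gene reads in thapsigargin and 21.83 and 19.29 M in DMSO at 12 h, against 31.66 to 36.2 M in thapsigargin and 31.67 to 33.83 M in DMSO at 6 h. The 12 h libraries were therefore shallower as well as fewer. Levels are given as CPM, gene counts scaled to a common library size, and compare a gene between libraries, not one gene with another. The 6 myoblast markers Myod1, Myf5, Des, Cdh15, Itga7 and Msc summed to 942 to 1051 CPM in thapsigargin and 1047 to 1084 CPM in DMSO at 12 h, against 2017 to 3633 CPM in thapsigargin and 3104 to 5542 CPM in DMSO at 6 h, and each had counts in every group. They did not move together. At 12 h Myf5 had 216 to 219 CPM in thapsigargin and 28 to 28.5 CPM in DMSO. Msc went the other way, with 0.509 to 0.612 CPM in thapsigargin and 4.47 to 5.8 CPM in DMSO. Both directions were the same at 6 h. In DMSO Myod1 had 13.8 to 15 CPM at 12 h and 88.6 to 112 CPM at 6 h. The vehicle cells of both times differed widely: DMSO at 12 h against DMSO at 6 h gave 6393 calls among 18039 genes (35.4%), with 3368 higher and 3025 lower. Long transcripts also weighed differently. Relative to the mean of all libraries, the median log2 level of long transcripts (2527 bases and over) minus that of short ones (820 bases and under) was 0.31 and 0.38 in thapsigargin and 0.35 and 0.37 in DMSO at 12 h, against -0.76 to 0.05 in thapsigargin and -0.91 to -0.45 in DMSO at 6 h. Whether time in culture, a separate experiment or library preparation lies behind these differences between 12 h and 6 h cannot be told apart, and each response below is a contrast within its own time. Fewer cells of a type and less RNA per cell cannot be told apart in bulk RNA.

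Most genes that responded at 12 h had responded in the same direction at 6 h. Most called changes in response were lower at 12 h, by a margin that depended on the setting. Of 18039 genes tested, 103 had a changed response (0.571%) at an adjusted p under 0.05 in edgeR's quasi-likelihood test. The change was higher in 7 genes (0.0388%) and lower in 96 (0.532%), and all 103 moved by at least 2-fold. Every one of these calls was also made by DESeq2, which called 96 higher (0.532%) and 341 lower (1.89%). At an unadjusted p under 0.05 there were 1435 genes (7.95%), 386 higher (2.14%) and 1049 lower (5.82%). Higher changes thus made up a larger share in DESeq2 and at the unadjusted threshold than among the 103 calls. Thapsigargin against DMSO gave 2356 calls at 12 h (13.1%), with 1134 higher (6.29%) and 1222 lower (6.77%), and 3926 calls at 6 h (21.8%), with 2341 higher (13.0%) and 1585 lower (8.79%). These responses share no library. Among their calls 1720 genes moved in the same direction at both times, 73.0% of the calls at 12 h and 43.8% of those at 6 h, and 15 moved in opposite directions. The median change over all genes was -0.04. Drug and vehicle libraries lay apart at both times, in opposite directions, in 396 genes (2.20%), which so few libraries per group can also give without a drug effect.

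The number of changed genes depended on the libraries that set the spread. Without a pair of libraries outside these 4 groups, a DMSO library of 2 h and a recovery library in which mitochondrial transcripts took 15.8% and 14.89% of the reads, the same test called 732 genes, 201 higher and 531 lower, which include all 103. Without single libraries it called 12 genes (thapsigargin at 12 h replicate 1 left out), 19 (thapsigargin at 12 h replicate 2), 38 (DMSO at 12 h replicate 1) and 35 (DMSO at 12 h replicate 2). Leaving out a 6 h library gave between 71 and 104. Scaling by total counts called 30 genes, and of the genes named by rule it ended the calls of Myom2, Avil, Tenm4, Gpr137b, Slc11a2, G6pdx, Atp8b4, C3, Il1rl1, Spry4, Atp2b4, Il33, Postn, Fbln2 and Ccn2. Testing without the low-count filter ended those of Tenm4, Gpr137b, Slc11a2, G6pdx and Spry4, a fit to the 10 libraries alone those of Avil and Postn, and transcript length offsets those of G6pdx and Sptb. Leaving out the pair of 6 h libraries whose length trend differed most from their groups ended those of G6pdx, Atp8b4, Spry4, Atp2b4 and Postn.

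**Figure D1:**
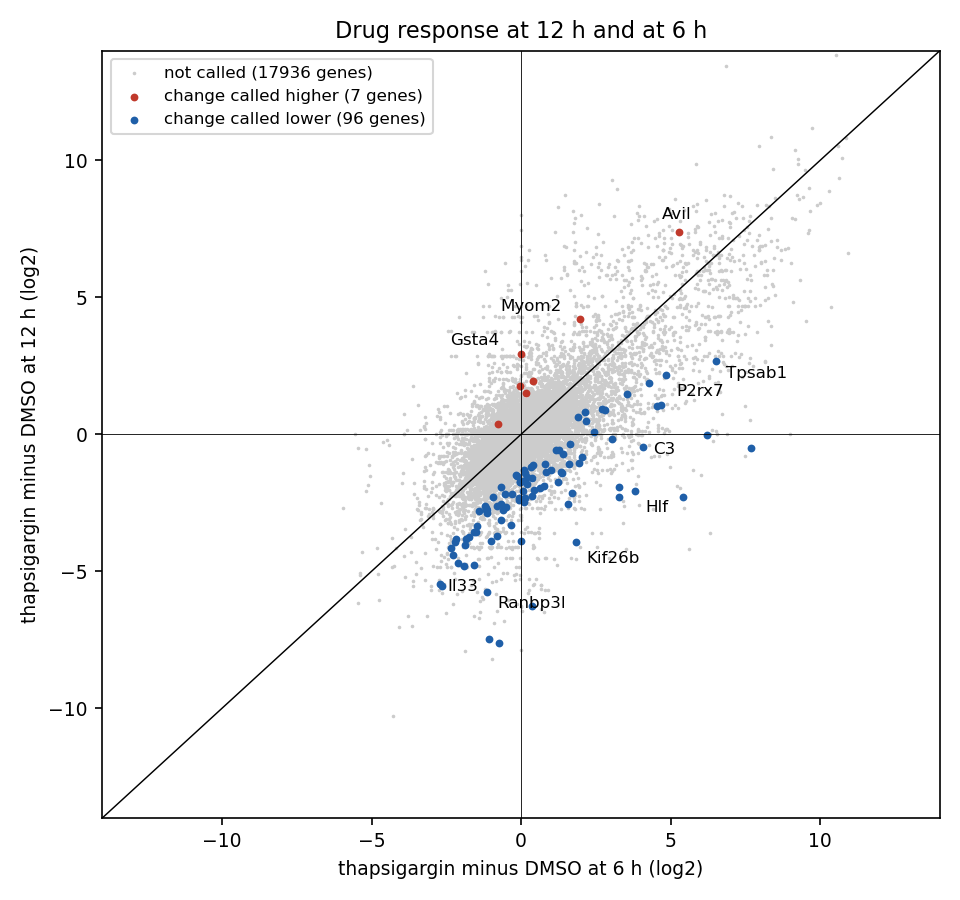
Log2 response to thapsigargin at 12 h (vertical axis) against that at 6 h (horizontal axis) for 18039 genes, with genes of called change in red (higher, 7) and blue (lower, 96) and the line of equal response in black. Most genes lie along the line, and the blue genes lie below it, including genes such as Hlf and Kif26b that are above 0 at 6 h and below 0 at 12 h.

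The 7 genes whose response was higher at 12 h included a glutathione S-transferase and genes of NADPH supply, of the sarcomere and of metal transport. Gsta4, a glutathione S-transferase that removes products of lipid peroxidation (ENSMUSG00000032348.6, chromosome 9, 78182774 to 78209349 on GRCm38), had 255 and 257 CPM in thapsigargin and 34.4 and 32.1 CPM in DMSO at 12 h, against 66.3, 124 and 101 CPM in thapsigargin and 85.2, 76.9 and 126 CPM in DMSO at 6 h. The drug and vehicle libraries were far apart at 12 h and overlapped at 6 h. Its change was 2.93 ± 0.46 (SE, adjusted p = 0.0057), from a response of 2.94 at 12 h and 0.01 at 6 h. The call ended without DMSO replicate 2 or thapsigargin replicate 1 of 12 h (adjusted p up to 0.053). G6pdx, which encodes the first enzyme of the pentose phosphate pathway and so supplies NADPH, had 172 and 179 CPM in thapsigargin and 133 and 137 CPM in DMSO at 12 h, against 84.3, 79.3 and 80.1 CPM in thapsigargin and 142, 139 and 134 CPM in DMSO at 6 h. The drug libraries lay above the vehicle at 12 h and below it at 6 h. Its 12 h response of 0.38 was not called (adjusted p = 0.19), and its 6 h response of -0.77 was. Its change was 1.15 ± 0.23 (adjusted p = 0.025), and 8 of 10 single-library omissions, all but DMSO replicate 3 and thapsigargin replicate 1 of 6 h, ended the call (adjusted p up to 0.25).

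Myom2, a protein of the M-band that holds myosin filaments together in the sarcomere (ENSMUSG00000031461.4, chromosome 8, 15057653 to 15133541), had 177 and 176 CPM in thapsigargin and 9.08 and 10.1 CPM in DMSO at 12 h, against 29.5, 22.9 and 23.8 CPM in thapsigargin and 5.92, 7.47 and 6.09 CPM in DMSO at 6 h. Drug and vehicle were apart at both times, by 18.4-fold at 12 h and 3.91-fold at 6 h. Its change of 2.23 ± 0.25 (adjusted p = 3.0e-04) passed in every single-library omission (adjusted p up to 0.012). Of 25 measured genes of muscle differentiation, a list that does not hold Myom2, none was called (5 lower and 1 higher at an unadjusted p under 0.05, 2 lower in DESeq2), and 21 lay below 0. The 1 higher was Actn2, a sarcomeric actinin, with 0.357 and 0.139 CPM in thapsigargin and no count in DMSO at 12 h, against 0.429, 0.59 and 0.539 CPM in thapsigargin and 0.183, 0.0623 and 0.158 CPM in DMSO at 6 h. At such levels no fold is given. With the empty group set to a floor of 3 counts per library the change of Actn2 was -1.02, so its direction is not settled.

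Avil, the actin-binding protein advillin of the villin family (ENSMUSG00000025432.11, chromosome 10, 127000709 to 127020994), was nearly silent in vehicle. It had 199 and 206 CPM in thapsigargin and 0.811 and 1.61 CPM in DMSO at 12 h, against 82.2, 96 and 96.3 CPM in thapsigargin and 2.9, 2.49 and 1.7 CPM in DMSO at 6 h. Its response was large at both times, 167-fold at 12 h and 38.7-fold at 6 h by group means, and its change was 2.12 ± 0.37 (adjusted p = 0.012). The call ended without either thapsigargin library or without DMSO replicate 1 of 12 h (adjusted p up to 0.13). Its RefSeq promoter (GRCm38.p6, chr10:127000459-127000758, plus strand, 250 bases before to 50 after the start) is shown because it holds, in capitals, a match to TGATGNAA, the core of the element that CEBP and ATF dimers bind.

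Avil promoter: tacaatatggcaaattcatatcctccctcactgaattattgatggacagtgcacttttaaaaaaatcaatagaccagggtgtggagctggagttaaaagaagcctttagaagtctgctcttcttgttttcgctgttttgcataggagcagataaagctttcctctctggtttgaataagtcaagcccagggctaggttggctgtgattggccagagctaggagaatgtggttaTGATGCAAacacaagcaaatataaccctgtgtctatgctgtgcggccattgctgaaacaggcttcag

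The other genes with a higher change responded at 12 h and little or not at 6 h. Tenm4, a transmembrane protein of the teneurin family, had 42.2 and 42.5 CPM in thapsigargin and 13 and 12 CPM in DMSO at 12 h, against 9.15 to 11.2 CPM in thapsigargin and 9.87 to 10.3 CPM in DMSO at 6 h. Slc11a2, the iron transporter DMT1, had 343 and 350 CPM in thapsigargin and 121 and 126 CPM in DMSO at 12 h, against 78.5 to 91.1 CPM in thapsigargin and 71.9 to 80.1 CPM in DMSO at 6 h. Gpr137b, a membrane protein of lysosomes, had 140 and 135 CPM in thapsigargin and 35.5 and 35.2 CPM in DMSO at 12 h, against 63.8 to 68.4 CPM in thapsigargin and 48.6 to 52.1 CPM in DMSO at 6 h. Their changes were 1.80 ± 0.32 (Tenm4, adjusted p = 0.012), 1.34 ± 0.24 (Slc11a2, adjusted p = 0.017) and 1.56 ± 0.21 (Gpr137b, adjusted p = 0.0023). Gpr137b passed in all 10 omissions (adjusted p up to 0.041). The call of Tenm4 ended without any one of the 12 h libraries (adjusted p up to 0.12), and that of Slc11a2 without any one of these or DMSO replicate 1 of 6 h (adjusted p up to 0.17).

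**Figure D2:**
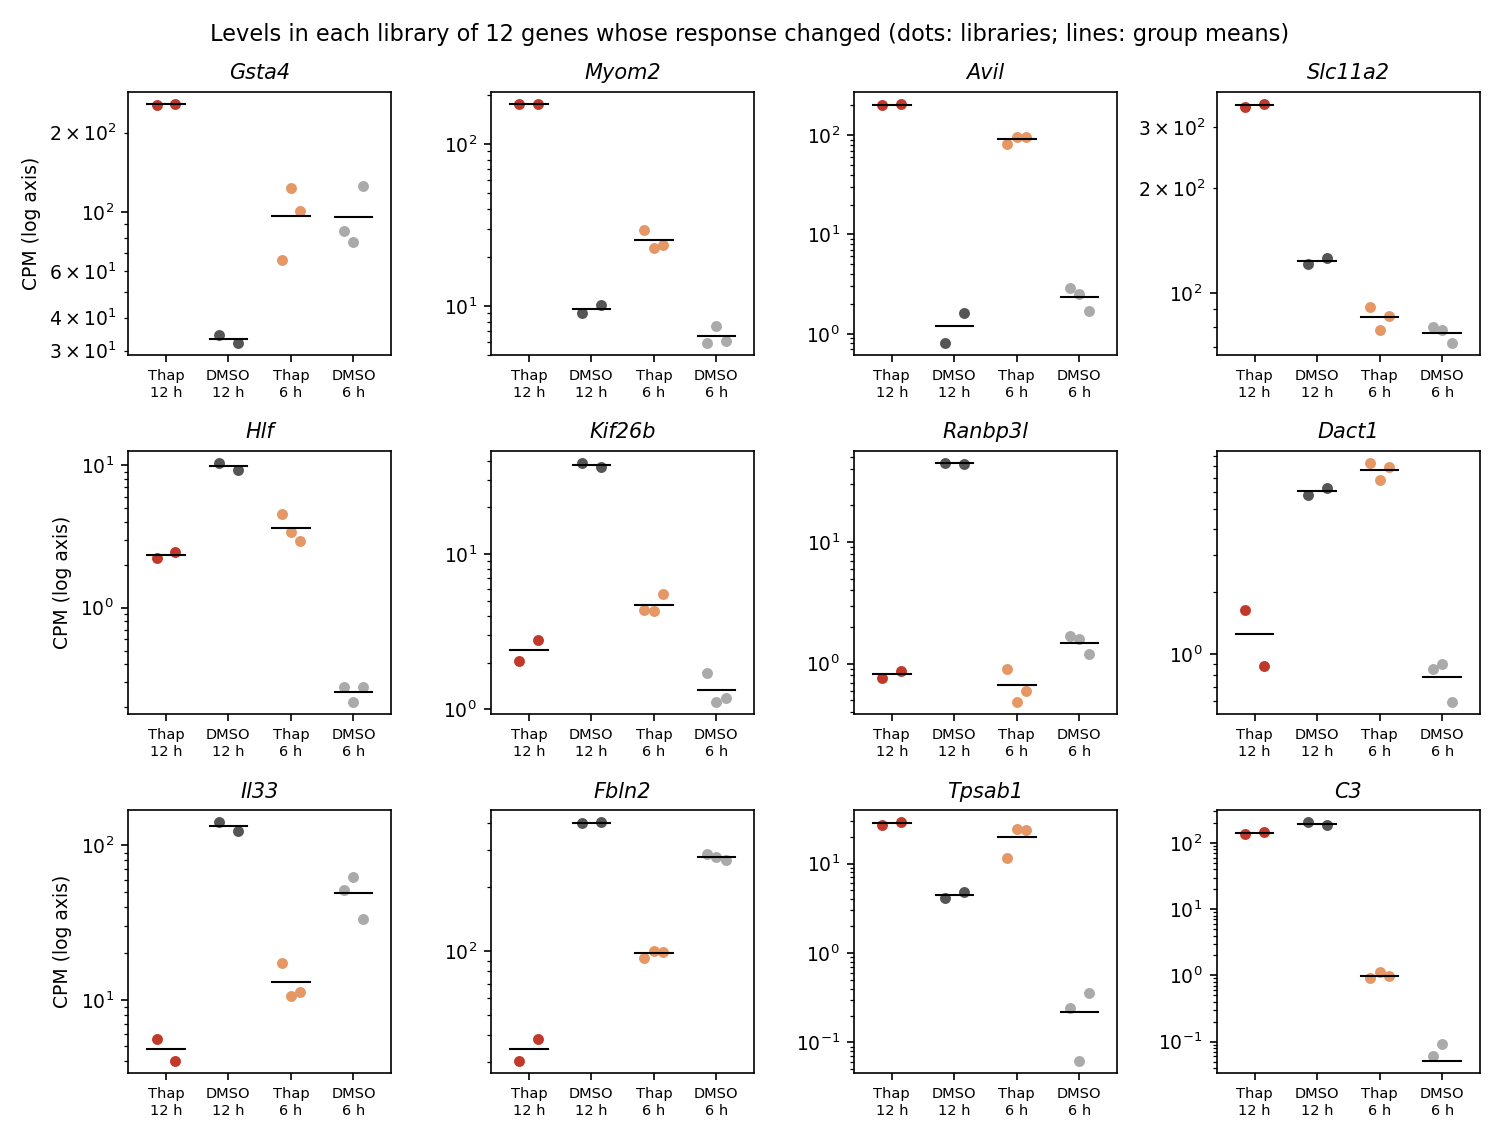
CPM on log axes in each library (dots) with group means (lines) for 12 genes whose response changed, in the order thapsigargin 12 h, DMSO 12 h, thapsigargin 6 h and DMSO 6 h. The top row holds genes whose response was higher at 12 h. In the rows under it the response was lower, and for Hlf, Kif26b and Dact1 the drug libraries lie below the vehicle at 12 h and above it at 6 h.

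The 96 genes with a lower change fell into classes by their calls at each time. At 12 h and 6 h, 31 were lower at both, 27 were lower at 12 h and not called at 6 h, 15 were lower at 12 h and higher at 6 h, 15 were not called at 12 h and higher at 6 h, and 8 were higher at both by a smaller amount at 12 h. Since the change contains both responses, this split is a description. The median of the 96 changes was -2.18, and 58 were at least 4-fold.

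The gene with the lowest adjusted p was one whose response was negative at 12 h and positive at 6 h. Kif26b, a kinesin-like protein that shapes cell adhesion and polarity (ENSMUSG00000026494.12, chromosome 1, 178529125 to 178939200), had 2.04 and 2.82 CPM in thapsigargin and 38.6 and 36.3 CPM in DMSO at 12 h, against 4.36, 4.31 and 5.53 CPM in thapsigargin and 1.71, 1.12 and 1.19 CPM in DMSO at 6 h. The drug libraries were all below the vehicle at 12 h and all above it at 6 h. Its change was -5.76 ± 0.37 (adjusted p = 8.3e-07), with responses of -3.94 at 12 h and 1.82 at 6 h, and it passed in every omission (adjusted p up to 9.7e-05). Dact1, a scaffold that tunes Wnt signalling, had 1.63 and 0.878 CPM in thapsigargin and 5.84 and 6.32 CPM in DMSO at 12 h, against 8.29, 6.88 and 7.96 CPM in thapsigargin and 0.855, 0.903 and 0.593 CPM in DMSO at 6 h. It was likewise lower at 12 h and higher at 6 h without overlap, a change of -5.56 ± 0.82 (adjusted p = 0.0041), and the call ended without either thapsigargin library of 12 h (adjusted p up to 0.073).

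Hlf, a bZIP transcription factor of the PAR family whose members follow the circadian clock (ENSMUSG00000003949.16, chromosome 11, 90336536 to 90390895), had 2.24 and 2.45 CPM in thapsigargin and 10.4 and 9.27 CPM in DMSO at 12 h, against 4.56, 3.4 and 2.95 CPM in thapsigargin and 0.275, 0.218 and 0.277 CPM in DMSO at 6 h. Again the drug libraries lay under the vehicle at 12 h and over it at 6 h. By group means the 12 h level was 0.239 of vehicle and the 6 h level 14.2 times vehicle, a change of -5.87 ± 0.48 (adjusted p = 1.5e-05) that passed in every omission (adjusted p up to 0.0013). Its promoter (GRCm38.p6, chr11:90390868-90391167, minus strand, printed 5′ to 3′ of the gene) is shown for the full cyclic AMP response element TGACGTCA, in capitals, which reads the same on both strands and is bound by CREB and ATF factors.

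Hlf promoter: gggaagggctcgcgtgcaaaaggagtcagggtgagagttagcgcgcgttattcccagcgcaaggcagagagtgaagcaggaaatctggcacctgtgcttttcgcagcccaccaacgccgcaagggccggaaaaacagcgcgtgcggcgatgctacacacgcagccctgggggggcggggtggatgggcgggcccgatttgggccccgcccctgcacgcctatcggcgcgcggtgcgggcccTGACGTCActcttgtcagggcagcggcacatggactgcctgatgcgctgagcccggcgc

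Iglon5, a cell adhesion protein of the immunoglobulin family, had 0.561 and 0.555 CPM in thapsigargin and 3.04 and 1.94 CPM in DMSO at 12 h, against 3.83, 6.42 and 5.98 CPM in thapsigargin and 1.74, 1.31 and 1.94 CPM in DMSO at 6 h. Its groups were apart in opposite directions, with a change of -3.85 ± 0.72 (adjusted p = 0.018), and the call ended without either thapsigargin library or DMSO replicate 1 of 12 h or DMSO replicate 2 of 6 h (adjusted p up to 0.17). Atp8b4, a putative lipid flippase, had 1.22 and 1.25 CPM in thapsigargin and 7.09 and 5.12 CPM in DMSO at 12 h, against 0.126, 0.139 and 0.227 CPM in thapsigargin at 6 h and no count in any DMSO library of 6 h. With the empty group set to a floor of 3 counts per library, its 6 h response was at least 1.62-fold higher and its change at least as low as -3.0, and the fitted adjusted p was 0.02. That p rose to as much as 0.13 in the 7 omissions that ended the call, those of any 12 h library, DMSO replicates 1 and 2 and thapsigargin replicate 3 of 6 h.

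Several secreted or immune genes were raised by the drug at 6 h and less so, or not, at 12 h, where their vehicle level was higher. C3, the central protein of complement, had 134 and 147 CPM in thapsigargin and 207 and 184 CPM in DMSO at 12 h, against 0.908, 1.11 and 0.964 CPM in thapsigargin and 0.061, 0.0934 and 0 CPM in DMSO at 6 h. Both 12 h groups stood over 100-fold above both 6 h groups, and the drug lay below vehicle at 12 h and above it at 6 h. The 6 h vehicle value rests on 5 counts. The change was -4.56 ± 0.85 (adjusted p = 0.018), with a 12 h response of -0.48 that was not called (adjusted p = 0.66), and it was not called without any one 12 h library or DMSO replicate 1 of 6 h (adjusted p up to 0.16).

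Tpsab1, a tryptase known from mast cells that shares sequence with its paralog Tpsb2, had 27.2 and 29.2 CPM in thapsigargin and 4.13 and 4.8 CPM in DMSO at 12 h, against 11.5, 24.2 and 24 CPM in thapsigargin and 0.244, 0.0623 and 0.356 CPM in DMSO at 6 h. It was higher with drug at both times, by 6.31-fold at 12 h and 90.1-fold at 6 h, and its drug level was similar while the vehicle level was higher at 12 h. Its change was -3.85 ± 0.63 (adjusted p = 0.0069), ended by leaving out either thapsigargin library of 12 h (adjusted p up to 0.098). Sptb, the spectrin of the red cell membrane skeleton, had 2.8 and 2.87 CPM in thapsigargin and 0.932 and 1.75 CPM in DMSO at 12 h, against 7.41, 8.85 and 9.81 CPM in thapsigargin and 0.305, 0.311 and 0.395 CPM in DMSO at 6 h. Its response was called at 6 h and not at 12 h (adjusted p = 0.13), with a change of -3.60 ± 0.59 (adjusted p = 0.0069). The call ended without either thapsigargin library or DMSO replicate 2 of 12 h (adjusted p up to 0.089).

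Postn, a matrix protein of activated fibroblasts, had 5.4 and 4.11 CPM in thapsigargin and 9.73 and 9.96 CPM in DMSO at 12 h, against 11.6, 4.69 and 5.92 CPM in thapsigargin and 1.92, 2.74 and 1.15 CPM in DMSO at 6 h. The drug libraries lay below vehicle at 12 h and above it at 6 h, where the response was called (1.93), and the 12 h response of -1.05 was not (adjusted p = 0.18). Its change of -2.98 ± 0.62 (adjusted p = 0.036) was lost in 8 of 10 omissions, all but DMSO replicate 2 and thapsigargin replicate 2 of 6 h (adjusted p up to 0.28).

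A second set was repressed at 12 h and less, or not, at 6 h, and it held an interleukin and its receptor. Il33, a cytokine of the IL-1 family (ENSMUSG00000024810.16, chromosome 19, 29925114 to 29960718), had 5.55 and 4.02 CPM in thapsigargin and 142 and 124 CPM in DMSO at 12 h, against 17.2, 10.5 and 11.3 CPM in thapsigargin and 51.8, 62.1 and 33.6 CPM in DMSO at 6 h. It fell to 0.036 of vehicle at 12 h and to 0.264 of vehicle at 6 h, a change of -2.87 ± 0.47 (adjusted p = 0.0069). Il1rl1, the receptor for IL-33, had 0.713 and 0.786 CPM in thapsigargin and 10.6 and 11.8 CPM in DMSO at 12 h, against 3.43, 1.53 and 3.03 CPM in thapsigargin and 2.47, 3.71 and 1.78 CPM in DMSO at 6 h. It was below vehicle at 12 h and overlapped it at 6 h, with a change of -3.90 ± 0.60 (adjusted p = 0.0057). Both calls ended without either thapsigargin library of 12 h, and that of Il33 also without DMSO replicate 1 (adjusted p up to 0.11 for Il33 and 0.086 for Il1rl1).

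Ranbp3l, a Ran-binding protein that exports BMP-activated Smad proteins from the nucleus (ENSMUSG00000048424.17, chromosome 15, 8967949 to 9067335), had 0.764 and 0.878 CPM in thapsigargin and 44.5 and 43.6 CPM in DMSO at 12 h, against 0.908, 0.486 and 0.595 CPM in thapsigargin and 1.68, 1.59 and 1.19 CPM in DMSO at 6 h. Drug libraries were alike at both times, and the vehicle was far higher at 12 h. Its change was -4.59 ± 0.48 (adjusted p = 3.0e-04), with responses of -5.74 at 12 h and -1.15 at 6 h, and it passed in every omission (adjusted p up to 0.0068).

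The response of Fbln2, Ccn2, Atp2b4 and Spry4 was negative at both times and more so at 12 h. Fbln2, a fibulin of elastic fibres and basement membranes, had 30.3 and 38.4 CPM in thapsigargin and 400 and 406 CPM in DMSO at 12 h, against 92.9, 100 and 99.2 CPM in thapsigargin and 287, 277 and 269 CPM in DMSO at 6 h. It was lower with drug at both times, at 0.0852 of vehicle at 12 h and 0.351 at 6 h, with a change of -2.04 ± 0.24 (adjusted p = 7.7e-04) that passed in every omission (adjusted p up to 0.035). Ccn2, a matricellular growth factor and target of YAP, had 6.12 and 8.46 CPM in thapsigargin and 38.7 and 46.1 CPM in DMSO at 12 h, against 57.3, 50.7 and 56.4 CPM in thapsigargin and 85.9, 95.7 and 80.4 CPM in DMSO at 6 h. Its level under drug was lower at 12 h by -2.91 and under vehicle by -1.04, and the change was -1.87 ± 0.31 (adjusted p = 0.0069). That call ended without DMSO replicate 2 or thapsigargin replicate 1 of 12 h (adjusted p up to 0.14).

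Atp2b4, a plasma membrane pump that exports calcium, had 6.47 and 6.52 CPM in thapsigargin and 40.4 and 39.9 CPM in DMSO at 12 h, against 22.2, 15.7 and 16 CPM in thapsigargin and 33.4, 33.1 and 28 CPM in DMSO at 6 h. Lower with drug at both times and more so at 12 h, it changed by -1.82 ± 0.32 (adjusted p = 0.012), a call that ended without any one 12 h library (adjusted p up to 0.14). Spry4, a feedback inhibitor of receptor tyrosine kinase signalling, had 2.14 and 2.59 CPM in thapsigargin and 10.7 and 10.8 CPM in DMSO at 12 h, against 10.2, 9.27 and 12 CPM in thapsigargin and 15, 15.2 and 15.3 CPM in DMSO at 6 h. Its change of -1.65 ± 0.35 (adjusted p = 0.043) ended as a call in all 10 omissions (adjusted p between 0.058 and 0.37).

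A change in response can come from the drug cells, the vehicle cells or both. The called change is the drug's difference between times minus the vehicle's, so lower calls favour these signs and the split is a description. Each difference between times also holds whatever set the 12 h libraries apart from the 6 h ones, which was not tested. Among the 96 lower genes the vehicle level was higher at 12 h than at 6 h in 72, the drug level was lower at 12 h in 81, and both held in 57. The vehicle's difference between times was the larger in 37 genes and the drug's in the remaining 59. Kif26b shows the first kind, with a vehicle difference of 4.80 and a drug difference of -0.96, and so do Hlf (5.24 and -0.63) and Ranbp3l (4.88 and 0.30). Ccn2 and Spry4 show the second, with drug differences of -2.91 and -2.15 and vehicle differences of -1.04 and -0.50. In 6 of the 7 higher genes the drug's difference was the larger, as in Myom2 (2.80, with 0.56 in vehicle), and Gsta4 is the exception, with 1.40 under drug and -1.53 under vehicle. Over all genes the median difference between times was -0.07 under drug and 0.00 under vehicle.

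**Figure D3:**
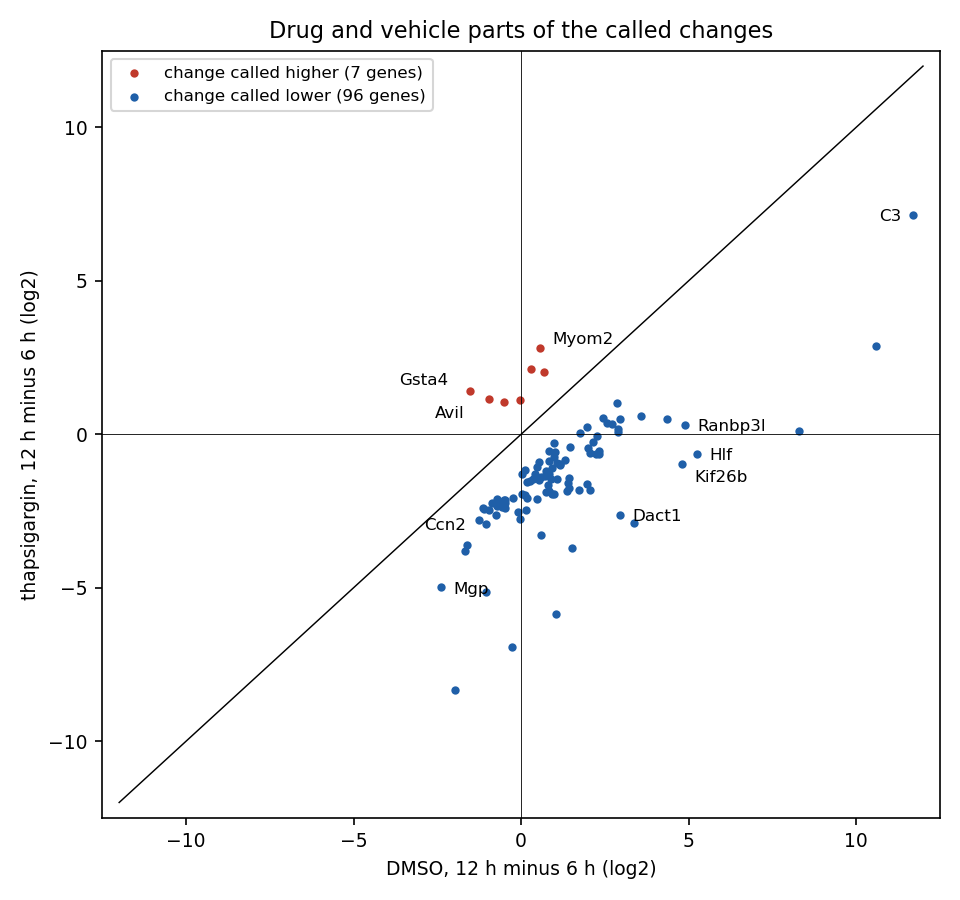
Log2 difference between 12 h and 6 h under thapsigargin (vertical axis) and under DMSO (horizontal axis) for the 103 genes of called change, red for higher and blue for lower, with the line of no change in response. Of the 96 blue genes, 57 lie at the lower right, where vehicle was higher and drug lower at 12 h.

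The core of the stress response showed no called change. Atf4, the transcription factor at the head of the ISR (ENSMUSG00000042406.8, chromosome 15, 80255184 to 80257541), had 983 and 1060 CPM in thapsigargin and 324 and 356 CPM in DMSO at 12 h, against 1549, 2009 and 2055 CPM in thapsigargin and 683, 608 and 669 CPM in DMSO at 6 h. Drug and vehicle were both lower at 12 h by a similar amount (-0.87 and -0.94). Its change was 0.07 with a 95% interval from -0.67 to 0.81. The interval was also close to 0 for Asns, asparagine synthetase (0.16, from -0.43 to 0.75), Trib3, a pseudokinase that restrains ATF4 (-0.16, from -1.06 to 0.73), Chac1, which breaks down glutathione (0.20, from -0.83 to 1.23), Atf3 (-0.31, from -1.37 to 0.76) and Atp2a2, which encodes the SERCA pump the drug binds (0.23, from -0.66 to 1.11). Intervals of this width leave room for a change in either direction, so equal responses are not shown.

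Among the CEBP factors the estimates were lower. Cebpg, the partner of ATF4 on amino acid genes, had 111 and 95.4 CPM in thapsigargin and 37.5 and 39.8 CPM in DMSO at 12 h, against 191, 164 and 160 CPM in thapsigargin and 38.6, 38.1 and 37.2 CPM in DMSO at 6 h. The drug was 2.67-fold above vehicle at 12 h and 4.53-fold above it at 6 h, with a change of -0.76 (95% interval from -1.44 to -0.09) that did not pass the adjustment over all genes (adjusted p = 0.51) and passed without the pair of libraries rich in mitochondrial transcripts. Cebpb changed by -0.87 (from -2.25 to 0.51), and its 12 h response of 0.80 was not called (adjusted p = 0.38). Ddit3, which encodes CHOP, had 216 and 246 CPM in thapsigargin and 14.4 and 14.3 CPM in DMSO at 12 h, against 407, 1869 and 1291 CPM in thapsigargin and 40, 28 and 96.7 CPM in DMSO at 6 h. Its 6 h libraries spread so widely that the interval of its change of -0.43 ran from -2.59 to 1.73. Ddit3 adjoins Mars, and the strand setting of the counting is not given in the sources used here, so their reads may not be fully separated.

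**Figure D4:**
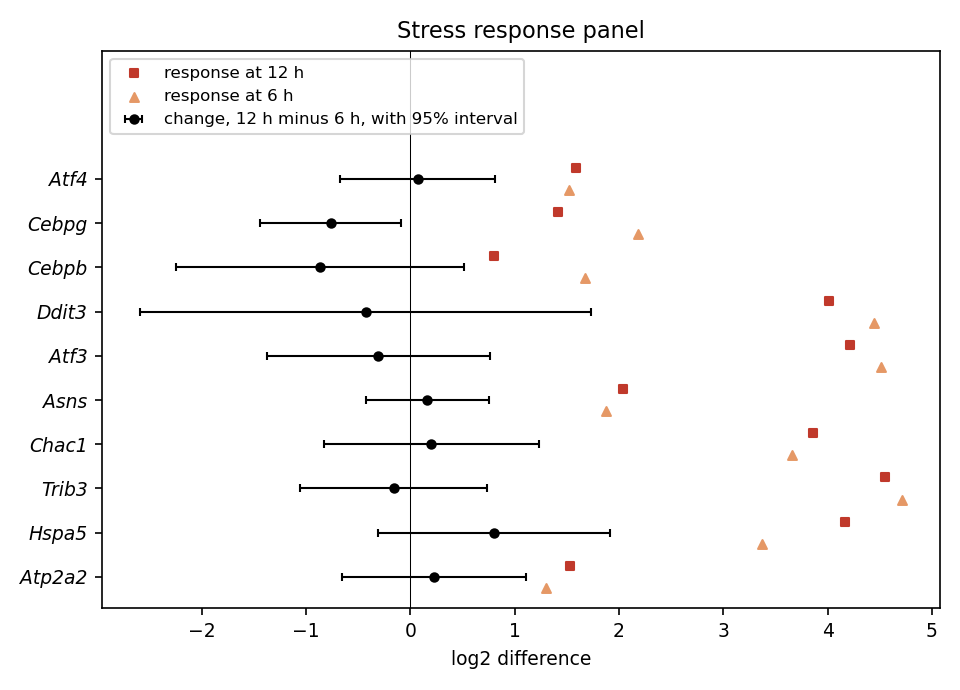
Change in response with its 95% interval (black), response at 12 h (red squares) and response at 6 h (orange triangles), in log2, for 10 stress response genes. Every interval but that of Cebpg (-1.44 to -0.09) crosses 0, and Cebpg is not called after adjustment.

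The 18 ISR factors and feedback genes were mostly raised at both times, 13 at 12 h and 16 at 6 h, and none had a called change (edgeR; 2 lower at an unadjusted p under 0.05, none in DESeq2), with a median of -0.15. The member with the largest change was Fgf21, a hormone that muscle secretes under stress (ENSMUSG00000030827.5, chromosome 7, 45613886 to 45615490). It had 18.8 and 23 CPM in thapsigargin and 0.0811 and 0.0922 CPM in DMSO at 12 h, against 51.2, 80.4 and 82.1 CPM in thapsigargin and 0.122, 0.187 and 0.0395 CPM in DMSO at 6 h. Nearly silent in vehicle at both times, it was 241-fold higher with drug at 12 h and 613-fold at 6 h by group means. The vehicle values rest on 4 counts in all at 12 h and 11 at 6 h, so the size of these folds is poorly bounded. Its change of -1.31 had a 95% interval from -3.16 to 0.55.

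All 16 genes of amino acid synthesis were measured, with 11 higher at 12 h, 13 higher at 6 h and none of called change (1 higher at an unadjusted p under 0.05, none in DESeq2, median 0.01). Pycr1, which makes proline (ENSMUSG00000025140.15, chromosome 11, 120635712 to 120643769), moved most. It had 57.9 and 64.9 CPM in thapsigargin and 6.36 and 6.92 CPM in DMSO at 12 h, against 58.6, 77.5 and 82.6 CPM in thapsigargin and 16.4, 12.9 and 18.1 CPM in DMSO at 6 h. The drug libraries of both times overlapped and the vehicle was lower at 12 h, so the drug stood 9.25-fold above vehicle at 12 h and 4.62-fold at 6 h, a change of 1.0 ± 0.29 (adjusted p = 0.19). The promoters of Fgf21 (chr7:45615441-45615740, minus strand) and Pycr1 (chr11:120643699-120643998, minus strand), from RefSeq on GRCm38.p6, show TGATGNAA, on the reverse strand in Fgf21 and on the forward strand in Pycr1.

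Fgf21 promoter: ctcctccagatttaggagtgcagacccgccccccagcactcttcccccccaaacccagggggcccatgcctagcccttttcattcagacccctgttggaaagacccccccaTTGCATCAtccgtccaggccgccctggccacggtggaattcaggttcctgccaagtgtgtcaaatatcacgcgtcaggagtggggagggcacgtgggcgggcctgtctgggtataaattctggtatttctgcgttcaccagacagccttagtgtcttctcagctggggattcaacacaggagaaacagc

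Pycr1 promoter: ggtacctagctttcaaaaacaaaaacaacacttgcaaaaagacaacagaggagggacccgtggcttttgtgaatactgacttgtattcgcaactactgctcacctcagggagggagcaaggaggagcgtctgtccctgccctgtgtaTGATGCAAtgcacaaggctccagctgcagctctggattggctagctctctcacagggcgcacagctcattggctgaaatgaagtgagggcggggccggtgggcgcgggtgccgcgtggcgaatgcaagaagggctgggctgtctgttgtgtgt

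Searched on both strands, TGATGNAA occurred in 6 of the 16 promoters of the ISR list (37.5%), in 1 of 3 of genes with a higher change, in 1 of 61 of genes with a lower change (1.64%) and in 3.97% of all 32851 RefSeq promoters. TGACGTCA occurred in 1 of 16, in 0 of 3, in 5 of 61 (8.20%) and in 1.79% of all. The motifs do not overlap in the sequences printed, and a match is a description of the letters only.

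Amino acid transport and tRNA charging showed no called change either. Of 12 transporters, 8 were higher at each time, and Slc7a11, the cystine importer that feeds glutathione synthesis, had the largest change, 1.61 (from 0.48 to 2.74, adjusted p = 0.29). It had 153 and 120 CPM in thapsigargin and 3.32 and 3.74 CPM in DMSO at 12 h, against 79.7, 54.6 and 64.6 CPM in thapsigargin and 5.34, 5.57 and 4.74 CPM in DMSO at 6 h, which is 38.7-fold and 12.7-fold. In all, 2 transporters were higher at an unadjusted p under 0.05 and 1 was called in DESeq2. Of 20 cytosolic tRNA synthetases, 8 were higher at 12 h and 14 at 6 h, and the largest change was that of Mars, -0.56 (adjusted p = 0.80), with none past an unadjusted p under 0.05 and none in DESeq2.

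ER chaperones and folding enzymes mostly had changes above 0, with none called. Their median change was 0.62, against -0.04 over all genes, and 23 of 24 lay above 0. Their median response was 1.91 at 12 h, with 18 higher, and 1.27 at 6 h, with 16 higher. None had a called change (edgeR; 5 higher at an unadjusted p under 0.05, 1 in DESeq2), and 4 were called higher without the pair of libraries rich in mitochondrial transcripts, namely Creld2, Ero1lb, Hyou1 and P4hb. Hyou1, a large chaperone of the ER, changed most. It had 2020 and 2132 CPM in thapsigargin and 163 and 174 CPM in DMSO at 12 h, against 1373, 1299 and 1347 CPM in thapsigargin and 243, 237 and 210 CPM in DMSO at 6 h, a change of 1.08 (from 0.37 to 1.79, adjusted p = 0.23).

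Hspa5, the main ER chaperone BiP, had 14441 and 13757 CPM in thapsigargin and 776 and 793 CPM in DMSO at 12 h, against 14122, 11662 and 12845 CPM in thapsigargin and 1346, 1489 and 906 CPM in DMSO at 6 h. Its level under drug was nearly the same at both times (0.13) and its vehicle level was lower at 12 h (-0.67), with a change of 0.80 (from -0.31 to 1.91). The 31 genes of ER-associated degradation and secretion had a median of 0.28, with none called (1 higher at an unadjusted p under 0.05, none in DESeq2). Their largest change, that of Srp54a (-1.42), rested on levels under 1 CPM in a gene with near-identical copies. The 12 UPR sensors and eIF2 kinases had a median of -0.20, none called by either tool or at an unadjusted p under 0.05, and the largest change in Creb3l1 (-0.55).

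The list with called genes in the higher direction was that of NRF2 targets, genes of glutathione, NADPH and quinone defence. Gsta4 and G6pdx were called and 18 of 20 were not. The median change was 0.61 and 17 of 20 lay above 0. The median response was 0.41 at 12 h and -0.26 at 6 h. Without the pair of libraries rich in mitochondrial transcripts 6 were called higher, adding Gsr, Pgd, Slc48a1 and Srxn1.

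The mitosis and DNA replication lists leaned lower, and that of G1 and S phase regulators did not. Of 24 mitosis genes 23 lay below 0, with a median change of -0.50 and none called (5 lower at an unadjusted p under 0.05, 1 in DESeq2). Their median response was -1.32 at 12 h, with 17 lower, and -0.64 at 6 h, with 8 lower. Mki67, the proliferation marker Ki-67, had 217 and 208 CPM in thapsigargin and 754 and 761 CPM in DMSO at 12 h, against 224, 206 and 218 CPM in thapsigargin and 292, 276 and 271 CPM in DMSO at 6 h. Drug levels of both times overlapped while vehicle was higher at 12 h, and its change was -1.46 (from -2.32 to -0.60, adjusted p = 0.15). Of 27 DNA replication genes 23 lay below 0, with a median of -0.37 and none called (6 lower at an unadjusted p under 0.05, 1 in DESeq2). The largest was Fen1 (1.51), at levels under 2 CPM. Of 18 G1 and S phase regulators 10 lay below 0 and 8 above it, with a median of -0.06. None was called (1 each way at an unadjusted p under 0.05, 1 higher in DESeq2). The largest change was that of Cdkn1c (-1.88), at levels near 1 CPM or less, and Ccne1 changed by 1.30 (adjusted p = 0.053).

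Signalling and matrix lists held the called genes already given. Extracellular matrix had 2 of 26 called lower, Postn and Fbln2, and a median of -0.46, with 18 genes below 0 and 8 above it, the highest being the collagen gene Col3a1 (1.42, not called). The 14 YAP and TEAD targets had 1 called lower, Ccn2, and a median of -0.30. NF-kB and cytokine genes had 1 of 21 called lower, Il33, and a median of -0.48, or -0.34 with empty groups at the floor. They moved both ways, with 4 higher and 2 lower at an unadjusted p under 0.05, the same counts in DESeq2, and Cxcl1, Cxcl5 and Nfkbiz called higher and Cxcl10, Il33 and Nfkbia lower without the pair of libraries rich in mitochondrial transcripts. Cxcl1, a chemokine that attracts neutrophils, had 554 and 489 CPM in thapsigargin and 138 and 140 CPM in DMSO at 12 h, against 2.7, 1.74 and 2.1 CPM in thapsigargin and 2.35, 3.27 and 1.27 CPM in DMSO at 6 h, a change of 1.99 (from 0.65 to 3.33, adjusted p = 0.25). The fitted change of Cxcl2 was higher still, but it had no count in DMSO at either time, so no fold is given. The 15 MAP kinase phosphatases and Sprouty genes had 1 called lower, Spry4, with a median of -0.16, and the 21 genes of calcium stores, entry and export had 1, Atp2b4, with a median of -0.08. Among 22 immediate early genes none was called (6 lower and 1 higher at an unadjusted p under 0.05, 3 lower in DESeq2), with a median of -0.26. Egr2, an early growth response factor, led them. It had 0.204 and 0.277 CPM in thapsigargin and 8.63 and 10.3 CPM in DMSO at 12 h, against 1.24, 1.15 and 0.794 CPM in thapsigargin and 5.77, 6.66 and 2.33 CPM in DMSO at 6 h, a change of -3.05 (from -4.58 to -1.52, adjusted p = 0.076).

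The remaining metabolic and housekeeping lists had no called change in edgeR. Counts of genes at an unadjusted p under 0.05 and in DESeq2 were 1 and 0 for 24 cholesterol synthesis genes (median 0.14, largest Ebp, 0.88), 1 and 0 for 13 fatty acid synthesis genes (-0.09, Acss2, -0.89), and 1 and 1 for 22 glycolysis and hypoxia genes (0.50, Slc2a3, 2.37, under 1 CPM). They were 1 and 0 for 22 autophagy and lysosome genes (0.22, Ctsl, 0.99) and 2 and 2 for 16 cytosolic heat shock proteins (0.34, Hsph1, 1.34). They were 0 and 0 for 25 proteasome subunits (0.25, Psmb5, 0.83), 30 nuclear subunits of oxidative phosphorylation (0.23, Ndufa2, 0.89), 13 mitochondrially encoded mRNAs (0.58, mt-Nd4l, 2.18), 12 mitochondrial chaperones and proteases (0.16, Hspe1, 0.70), 25 cytosolic ribosomal proteins (0.60, Rps19, 0.91) and 20 ribosome biogenesis genes (-0.03, Rrp9, 0.50). These medians moved with the libraries of 6 h. Without DMSO replicate 3 of 6 h that of the mitochondrially encoded mRNAs was -0.02 and that of oxidative phosphorylation -0.04, and the ribosomal protein median lay between 0.13 and 0.95 over the single omissions. Without the pair of 6 h libraries of unusual length trend the ribosomal protein, proteasome, oxidative phosphorylation and mitochondrially encoded medians all turned negative.

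Fate and damage lists were mixed. The 22 p53 targets and growth arrest genes had 3 higher at an unadjusted p under 0.05, 1 in DESeq2 and none called, with a median of 0.00, led by Plk2 (1.05, adjusted p = 0.44). The 14 genes of the BCL2 family and death receptor had 2 higher and 3 lower at an unadjusted p under 0.05, 1 higher and 3 lower in DESeq2 and none called, led by Bmf, a BH3-only protein (-3.41, adjusted p = 0.12). The 20 interferon-stimulated genes had 1 each way at an unadjusted p under 0.05, none in DESeq2 and none called, led by Ifit1 (-2.06, adjusted p = 0.56). The 25 muscle differentiation genes had a median of -0.73. The largest change was that of Myh1, which had no count in thapsigargin at 12 h and under 1.2 CPM elsewhere, so no fold is given. The 19 myoblast identity and ID genes had 3 lower at an unadjusted p under 0.05, 2 in DESeq2 and none called (median -0.13, largest Pax7, 1.83, at levels near 2 CPM or less).

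**Figure D5:**
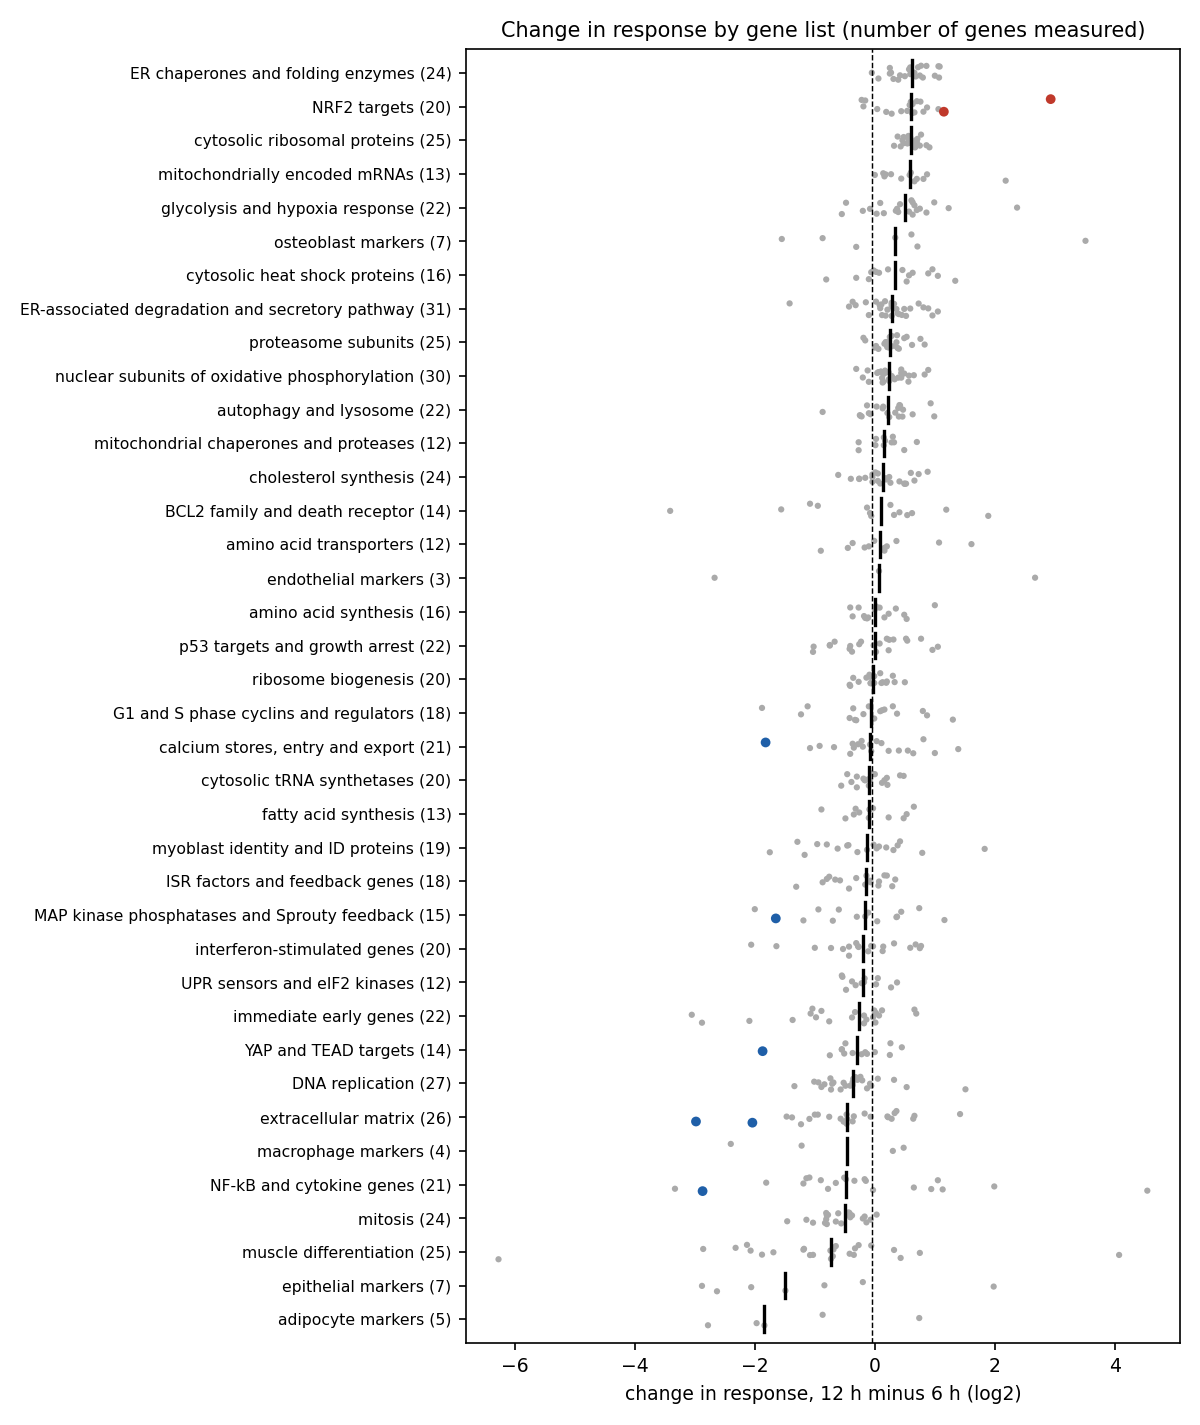
Change in response of each measured gene (dots) in 38 lists, with list medians (black bars), called genes in red (higher) and blue (lower), and the median of all genes (-0.04) as a dashed line. ER chaperones and NRF2 targets have the highest medians (0.62 and 0.61), and called genes are 2 NRF2 targets and 6 lower genes in 5 lists.

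Markers of other cell types were low except those of osteoblasts, and each list had a gene without a count in some groups. Summed over 10 epithelial markers, levels were 14.4 to 16.4 CPM in thapsigargin and 18.9 to 19.9 CPM in DMSO at 12 h, against 62.2 to 130 CPM in thapsigargin and 84.3 to 163 CPM in DMSO at 6 h, and Epcam had no count in any of the 4 groups. The 7 endothelial markers summed to at most 4.92 CPM in any library, and the 7 macrophage markers to between 20.2 and 37.7 CPM, with Adgre1 and Itgam at no count. The 7 adipocyte markers summed to 131 to 138 CPM in thapsigargin and 62.4 to 68.4 CPM in DMSO at 12 h, against 85 to 98.8 CPM in thapsigargin and 32.6 to 39.6 CPM in DMSO at 6 h, with Adipoq at no count except in thapsigargin at 6 h. The 8 osteoblast markers summed to 877 to 908 CPM in thapsigargin and 2737 to 2808 CPM in DMSO at 12 h, against 1579 to 2158 CPM in thapsigargin and 2040 to 4101 CPM in DMSO at 6 h, and Ibsp had no count in DMSO at 12 h or in either group at 6 h. None of these markers had a called change in edgeR, where Cebpa, an adipocyte marker, changed by -1.97 (adjusted p = 0.052). DESeq2 called 2 adipocyte markers and 1 osteoblast marker lower. Cebpa, Pparg and Phex were called lower without the pair of libraries rich in mitochondrial transcripts. The largest changes by list were those of Krt8 (-2.88, adjusted p = 0.39), Kdr (-2.67, 0.47), Lyz2 (-2.40, 0.71) and Dmp1 (3.51, 0.25). The unadjusted p was under 0.05 for all but Lyz2. The highest level in any library was 2.37 CPM for Kdr, 0.539 CPM for Lyz2 and 2.15 CPM for Dmp1. In thapsigargin Dmp1 had 3 counts in all at 12 h and 4 at 6 h. For adipocytes the largest change was that of Cd36, with no count in DMSO at 6 h. In the other direction from Krt8 lay Cdh1 (1.98, adjusted p = 0.93), under 0.5 CPM in every library. Cdh5, with no count in DMSO at 12 h, had a fitted change of 2.67, and -2.5 with the empty group at the floor. For Cd36 these values were -2.78 and 2.07, so the direction of neither gene is settled. The part of all these markers in the results was not tested.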

How the data were processed

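The tools named in the submitters' processing notes are Trim Galore, STAR 2.5.3a, bedtools 2.31.0 and DESeq2, with the build mm10. The deposited values are raw counts per gene and library, with 5 trailing lines of unassigned reads (13.72% to 28.74% of reads, median 15.6%) left out. No source used here names the counting program, its strand setting or the annotation. Of 55401 identifiers, 55141 matched GENCODE M21 (GRCm38).

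From these counts, edgeR 4.0.16 (limma 3.58.1, R 4.3.3) fitted 1 quasi-likelihood model with a mean for each of 7 groups to all 19 libraries, after TMM scaling and filterByExpr by group (18039 genes, common biological coefficient of variation 0.352). Tests were two-sided, adjusted by Benjamini-Hochberg over all genes, and called under 0.05. SE and 95% intervals are from that fit. The change shares libraries with both responses. The fit was also tested on simulated data with known changes. Alternatives were other scalings, no filter, DESeq2 1.42.0, 10 libraries, a replicate block, lowess length offsets and omission of libraries. No libraries were identical. Tables and plots used Python 3.11.15, pandas 2.3.3 and matplotlib 3.10.9.

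Named are a stress panel of 10 genes, the 10 highest and 10 lowest changes among called genes with at least 5 CPM in a group (7 were called higher), and for each of 38 lists up to 3 called members in each direction or else the largest change. Members and lists were chosen with earlier results of these data known. The Avil and Hlf promoters, Ccne1, Cebpa, the genes added without the 2 libraries, and the genes of the closing observations were chosen after their values were seen. RefSeq promoters matched 3 of the 7 genes called higher and 61 of the 96 called lower. Of the called genes named by rule, Gsta4, Myom2, Gpr137b, Slc11a2, Tpsab1, Spry4 and Ccn2 had no match.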

Additional observations from a re-analysis of the deposited data

Results flagged for a closer look

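In 28 of the 103 genes of called change, 11 of them named, every drug library lay on one side of the vehicle libraries at 12 h and on the other side at 6 h. The log2 changes of the named genes were 1.15 in G6pdx, -5.87 in Hlf, -5.76 in Kif26b, -5.56 in Dact1, -4.56 in C3, -3.85 in Iglon5 and -2.98 in Postn, and, among genes chosen after their values were seen, -2.63 in Dbp, -2.60 in Vdr and -1.74 in Mical2. In Atp8b4, with the empty DMSO group of 6 h at the floor, it was at least as low as -3.0. Over all genes, 396 (2.20%) had groups apart in opposite directions, called or not. So few libraries per group can give such a split without a drug effect. Genes called for their change are more apt to show it, so the 28 are a description. The 12 h response was not called in G6pdx, C3 and Postn. In Mical2 the 6 h response was not called (0.19, adjusted p = 0.43). The test of the difference is that of the change in response itself.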

How the results depend on the processing

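The 103 calls became 30 under total-count scaling (1 higher, 29 lower), 437 in DESeq2, 732 without the 2 libraries rich in mitochondrial transcripts, and 12 to 104 over the 10 single-library omissions, where a 12 h group left with 1 library was assumed to vary like the others. The lowest counts were without thapsigargin replicates 1 and 2 of 12 h (12 and 19) and DMSO replicates 2 and 1 of 12 h (35 and 38). Total-count scaling moved the median of all genes to -0.16, against -0.04. The other settings stayed within 1.5 times the count, at 71 to 148, but the genes called were not all the same. Of the 103, these settings kept between 61 and 94. Without the low-count filter 61 were kept, with length offsets 77, and without the pair of 6 h libraries of unusual length trend 73. For the response at 12 h, 2356 calls became 1546 under total-count scaling, 4539 without the 2 libraries and 1124 to 2518 over the omissions. For the response at 6 h, 3926 calls became 6588 without the 2 libraries (2897 to 3607 over the omissions), and total-count scaling gave 2069 higher and 832 lower. Leaving out the 2 libraries and the pair of 6 h libraries of unusual length trend (88 calls) were chosen after seeing the data.

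Of 38 named called genes none turned sign in any of 20 settings. DESeq2 and the fit without the 2 libraries kept all 38 calls, and total-count scaling kept 16. The drug and vehicle libraries of equal number did not deviate together (r of -0.61 to 0.39 at 6 h, 0.00 at 12 h), so the numbers were not taken as pairs. These numbers are those of the titles, and for thapsigargin at 12 h the deposited count tables are numbered 2 and 3 where the titles say 1 and 2. A replicate block by title number gave 71 calls, all among the 103, and with length offsets 83. The block alone ended 7 of the 38 named calls, those of G6pdx, Atp8b4, C3, Spry4, Postn, Angpt4 and Mgp. Length offsets alone gave 124 (19 higher, 105 lower). They brought the median change of transcripts of 2527 bases and over, with 43 lower calls and none higher, to -0.05, against -0.21 without them.

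The medians of the ER chaperone, NRF2, mitosis, DNA replication, extracellular matrix and muscle differentiation lists kept their sign in all 20 settings, and those of the amino acid synthesis (9 settings), p53 (6) and osteoblast (7) lists turned most often. With 2 shallow libraries per 12 h group, changes of low genes are poorly bounded: 12 of the 96 lower calls had every group under 5 CPM, and 5 had a group without a count.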

Other observations

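Genes outside the naming rule, chosen after their values were seen, widen the picture. All 3 measured angiopoietins, ligands of the vascular receptor TIE2, had a lower change. Angpt1, the activating ligand, had 1.17 and 1.34 CPM in thapsigargin and 57.6 and 58.4 CPM in DMSO at 12 h, against 3, 0.938 and 1.87 CPM in thapsigargin and 12.3, 13.7 and 10.7 CPM in DMSO at 6 h, a change of -2.88 ± 0.50 (adjusted p = 0.012). Angpt2 changed by -1.94 ± 0.36 (adjusted p = 0.018) and Angpt4 by -2.44 ± 0.53 (adjusted p = 0.049). The calls of Angpt1 and Angpt2 ended without any one 12 h library (adjusted p up to 0.16 and 0.20), and Angpt4 lost its call in 9 of 10 omissions, all but thapsigargin replicate 1 of 6 h (adjusted p up to 0.34).

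Vdr, P2rx7, Olfml3 and Synpo passed in all 10 single-library omissions. Vdr, the vitamin D receptor, had 4.84 and 6.29 CPM in thapsigargin and 21.7 and 21.8 CPM in DMSO at 12 h, against 24.4, 24.5 and 23.4 CPM in thapsigargin and 15, 14 and 17.4 CPM in DMSO at 6 h. It was lower with drug at 12 h and higher at 6 h, with a change of -2.60 ± 0.28 (adjusted p = 3.0e-04). P2rx7, a receptor channel for extracellular ATP, had 110 and 121 CPM in thapsigargin and 26.6 and 25.4 CPM in DMSO at 12 h, against 205, 148 and 173 CPM in thapsigargin and 6.62, 6.85 and 5.02 CPM in DMSO at 6 h. It was raised 4.44-fold at 12 h and 28.4-fold at 6 h, with a change of -2.68 ± 0.30 (adjusted p = 3.0e-04). Olfml3, a secreted olfactomedin-like protein, changed by -3.20 ± 0.35 (adjusted p = 3.0e-04) and Synpo, the actin-associated synaptopodin, by -2.91 ± 0.38 (adjusted p = 0.0017).

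Beside Hlf, the related PAR factor Dbp was called lower. It had 2.9 and 2.87 CPM in thapsigargin and 10.4 and 10.8 CPM in DMSO at 12 h, against 12, 18.6 and 17.4 CPM in thapsigargin and 10.5, 9.09 and 8.74 CPM in DMSO at 6 h, a change of -2.63 ± 0.42 (adjusted p = 0.0063) that ended without either thapsigargin library of 12 h (adjusted p up to 0.089). The third PAR gene, Tef, changed by -0.84 ± 0.28 (adjusted p = 0.30). Of 13 other clock genes looked at, all lay below 0 and none was called. The 95% interval lay below 0 in Per3 (-1.67, adjusted p = 0.12), Bhlhe41 (-1.74, adjusted p = 0.066), Bhlhe40 (-1.53, adjusted p = 0.31), Cry2 (-1.06, adjusted p = 0.14) and Nr1d1 (-1.12, adjusted p = 0.57). It reached or crossed 0 in Per2 (-1.60), Nr1d2 (-1.16), Ciart (-0.84), Cry1 (-0.82), Nfil3 (-0.44), Per1 (-0.33), Arntl (-0.22) and Clock (-0.19).

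Growth arrest and signalling genes were also among the calls. Gas1, a growth arrest protein and hedgehog co-receptor, had 13.1 and 14.8 CPM in thapsigargin and 265 and 235 CPM in DMSO at 12 h, against 7.77, 6.35 and 6.35 CPM in thapsigargin and 38.7, 38.5 and 27.2 CPM in DMSO at 6 h, a change of -1.81 ± 0.29 (adjusted p = 0.0058) that ended without either thapsigargin library or DMSO replicate 1 of 12 h (adjusted p up to 0.10). Smad9, a BMP signal transducer, was 2.03 times vehicle at 12 h and 23.8 times vehicle at 6 h, a change of -3.54 ± 0.51 (adjusted p = 0.0032) that ended without thapsigargin replicate 1 of 12 h (adjusted p = 0.062). Mical2 (-1.74, adjusted p = 0.0027), Adam12 (-2.14, 0.0057), Csf2rb (-2.74, 0.017), Wnt10b (-2.63, 0.02) and Mgp (-2.60, 0.039) were also called lower. Of 10 single-library omissions, 1 ended the call of Mical2, 3 that of Adam12, 5 that of Csf2rb, 6 that of Wnt10b and 8 that of Mgp. The other 65 called genes, all lower, had changes between -8.18 and -1.25.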
